A study of Mus musculus with 7 samples.

Results

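Vipr1, Als2cl, Dapl1, Cd55, Igfbp4, Dtx1, Cd7, Actn1, Treml2 and Trib2 are 10 mouse genes, of 19589 measured, whose RNA has been linked to naive T cells and which were picked by symbol for being low in mice labelled RT. The picking used the RT and WT values themselves. The differences between RT and WT in these 10 genes are therefore given as a description, with no test. The samples were CD4+ cells sorted by flow cytometry from the spleens of C57BL/6 mice, in 7 RNA-seq libraries. RT1, RT2 and RT3 came from 3 mice that lack Tet2 (Tet2-/-) and carry the G17V form of RHOA. WT1 to WT4 came from 4 wild-type mice. TET2 is an enzyme that oxidises methylated cytosine in DNA, and RHOA is a small GTPase whose G17V form recurs in angioimmunoblastic T cell lymphoma. The promoter that drives G17V RHOA, the cells that carry it, and the ages of the mice were not stated.

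Naive T cells have not yet met their antigen. They circulate between blood and lymphoid organs and keep a quiescent programme that transcription factors such as FOXO1, KLF2, TCF7, LEF1 and SATB1 help to maintain, and many of its genes are turned down once a cell is activated. The 10 genes do not form a single pathway. VIPR1 is a receptor for vasoactive intestinal peptide, and CD55 shields cells from complement and binds the adhesion receptor CD97. CD7 and TREML2 are other proteins of the cell surface. IGFBP4 is secreted and binds insulin-like growth factors. DTX1 is a ubiquitin ligase of the deltex family tied to Notch signalling, TRIB2 is a tribbles pseudokinase, and ALS2CL binds the small GTPase RAB5. DAPL1 is a relative of death-associated protein, and ACTN1 is an actin cross-linker of the alpha-actinin family.

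Promoter sequences were taken from RefSeq (GRCm38.p6, the build also called mm10) because TET2 acts on cytosines in CpG dinucleotides. Windows of 250 bases upstream of the start site were found for 8 of the 10 genes, 9 windows in all, with a pair for Als2cl. The start sites are RefSeq's. For Trib2, Dtx1, Actn1 and Als2cl, the gene spans printed further on are GENCODE's and begin upstream of them, so those windows lie partly or wholly within the printed spans. No methylation was measured in these libraries. The windows of Vipr1, Dapl1 and Trib2 are shown, 5′ to 3′ on the gene's strand, with every CpG in capitals, since Vipr1 and Dapl1 stood among the lowest genes in RT and Trib2 was the gene that differed least.
Vipr1: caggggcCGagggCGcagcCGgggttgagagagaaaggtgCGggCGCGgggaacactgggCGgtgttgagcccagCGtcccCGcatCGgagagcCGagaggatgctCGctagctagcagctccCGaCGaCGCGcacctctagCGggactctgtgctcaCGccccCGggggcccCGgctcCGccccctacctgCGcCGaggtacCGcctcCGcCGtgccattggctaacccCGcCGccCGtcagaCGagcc
Dapl1: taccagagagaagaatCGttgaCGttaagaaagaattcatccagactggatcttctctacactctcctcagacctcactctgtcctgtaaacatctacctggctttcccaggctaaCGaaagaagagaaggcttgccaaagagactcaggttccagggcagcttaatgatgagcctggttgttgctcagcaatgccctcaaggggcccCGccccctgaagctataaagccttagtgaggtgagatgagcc
Trib2: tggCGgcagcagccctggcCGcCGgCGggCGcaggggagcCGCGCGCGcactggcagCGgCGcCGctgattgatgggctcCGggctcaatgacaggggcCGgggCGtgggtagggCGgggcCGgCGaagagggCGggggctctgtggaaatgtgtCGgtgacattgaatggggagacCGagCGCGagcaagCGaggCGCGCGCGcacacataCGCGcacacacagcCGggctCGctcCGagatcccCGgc
The Vipr1 window lies at chr9:121642466-121642715 on the plus strand and holds 30 CpGs, 0.906 of the number its base composition predicts. The Dapl1 window lies at chr2:59484403-59484652 on the plus strand and holds 4 CpGs, a ratio of 0.257. The Trib2 window lies at chr12:15816786-15817035 on the minus strand and holds 34 CpGs, a ratio of 1.04. Dense and sparse promoters thus both occurred among the genes low in RT, and the gene with the highest ratio was the one that differed least. Cd55, at 20.4% of the deep WT mean in RT1 (library sets are defined below), had a ratio of 0.315. A link between the ratio and the difference was not tested. The windows of Dtx1, Igfbp4 and Actn1 had ratios of 0.772, 0.748 and 0.618, and the Als2cl windows had 0.850 and 0.961. The median over the 9 windows was 0.772, against 0.743 over the promoters of the genes tested and 0.373 over all 32851 promoters in the table.

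Both strands of each window were also searched for short words bound by factors of naive T cells and of the Notch pathway. GTAAACA, the FOXO word, occurred in 1 of the 9 windows, that of Dapl1, and in 3.17% of all promoters and 2.11% of those of the genes tested. TGGGAA, the word of the Notch partner RBPJ, occurred in 2 windows, those of Dapl1 and Actn1, and in 21.6% of all promoters and 19.9% of those of the genes tested. CACCC, bound by KLF factors, occurred in 5 windows and in 52.0% of all promoters and 56.7% of those of the genes tested. CTTTGA (TCF7 and LEF1) and CCGGAA (ETS factors) occurred in no window. CTTTGA was in 13.8% of all promoters and 10.3% of those of the genes tested, and CCGGAA was in 12.03% and 24.0%. No base belonged to matches of more than 1 word. The stretch of the Dapl1 window that holds both of its matches lies at chr2:59484483-59484522, bases -170 to -131 from the start site, with the FOXO word and the reversed RBPJ word in capitals.
Dapl1 stretch: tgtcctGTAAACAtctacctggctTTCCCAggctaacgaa
A match of letters is a description of the sequence and says nothing about binding.

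The deposited values are RPKM, reads scaled to transcript length and to the library total. The library totals behind them, recovered from their steps, were 21800352 reads in RT1, 18566233 in WT1 and 20033254 in WT2, called the deep set here. They were between 105763 and 121659 in RT2, RT3, WT3 and WT4, the shallow set. These totals are read from the values, and whether the shallow libraries were sequenced to that depth is not stated. Read counts, limits and intervals in the shallow set hold for the recovered totals only. For a gene of 2 kb, 1 read meant 0.0229 to 0.0269 RPKM in the deep set and 4.11 to 4.73 RPKM in the shallow one. Summed RPKM also differed, at 133044 to 152578 in the deep set and 326187 to 366023 in the shallow set, so RPKM levels of the sets are not on 1 scale. Both sets hold both genotypes, and each gene is therefore also compared within its set. Intervals and limits from read counts cover counting error only. Markers of T cells summed to between 4330 and 9366 RPM (recovered reads scaled to a common library total) in RT and between 5180 and 5766 in WT, with all 10 above 0 in every library. Cd8a and Cd8b1 together stayed at or under 8.95 RPM in RT and at or under 27.7 RPM in WT. Tet2 and Rhoa are not a check of the genotypes here, because the table does not show which exon was deleted or which form of RHOA was read. Tet2 had 5.03, 0.803 and 0 RPKM in RT1 to RT3, against 6.32, 4.68, 2.86 and 2.79 in WT1 to WT4.

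Summed over the 10 genes, reads were lower in every RT library than in every WT library. The sums were 535, 422 and 546 RPM in RT1 to RT3, against 2036, 3137, 1849 and 1656 RPM in WT1 to WT4. Of the 10 genes, 7 had RT and WT ranges that did not overlap, with RT below WT: Vipr1, Als2cl, Dapl1, Cd55, Igfbp4, Dtx1 and Actn1. The ranges of Cd7, Treml2 and Trib2 overlapped. The 9605 genes kept for testing, those reaching 1 RPKM in 3 or more libraries, include all 10, and 4.57% of them lay wholly below WT and 4.47% wholly above. That count was fixed in part by the choice of the genes and nothing is read from it. The working name of the genes, lost in RT, held for Dapl1 in the sense that it was listed at 0 in all RT libraries, and it did not hold for Trib2. In bulk RNA, fewer cells that express a gene and less RNA per cell cannot be told apart.

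**Figure D1:**
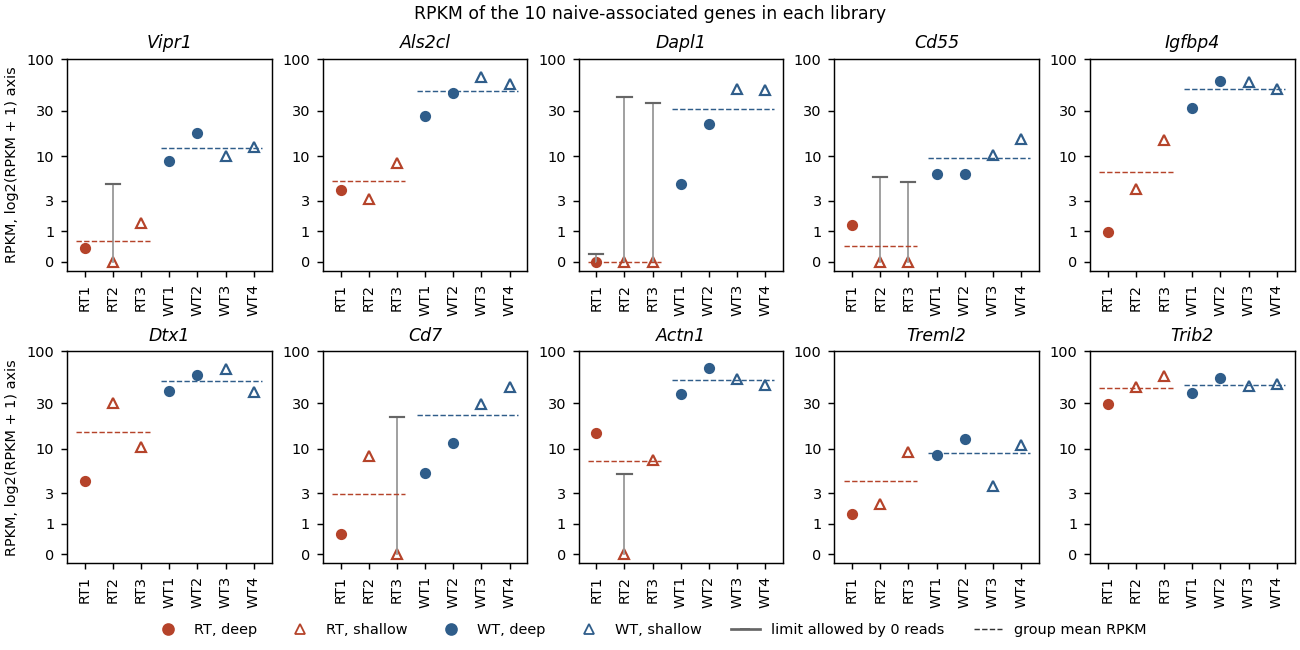
RPKM of each gene (log axis of RPKM + 1) in RT1 to RT3 and WT1 to WT4, 1 panel a gene, with filled points for the deep set, open triangles for the shallow set, dashed lines for group means and grey bars up to the limit that a count of 0 allows. RT points lie below all WT points in 7 panels, while Trib2 has RT points at 29.2 to 56.9 RPKM among WT points at 38.3 to 54.2 RPKM.

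Among the surface proteins, Vipr1 (chr9:121642716-121672954, plus strand) was low in every RT library. It had 0.380, 0 and 1.42 RPKM in RT1 to RT3, against 8.90, 17.9, 10.1 and 12.8 RPKM in WT1 to WT4. The reads behind these were 48, 0 and 1 in RT, against 958, 2080, 7 and 9 in WT. The highest RT value lay below the lowest WT value, although 3 reads, the limit for a count of 0, would be 4.89 RPKM in RT2. In the deep set RT1 had 2.83% of the WT mean, a level 35.3-fold lower. On the log2(RPKM + 1) scale the difference over all 7 libraries was -3.12 ± 0.49 (SE).

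Cd55 (chr1:130439027-130462744, minus strand) had 1.29, 0 and 0 RPKM in RT1 to RT3, against 6.30, 6.28, 10.4 and 15.2 RPKM in WT1 to WT4. RT1 alone of the RT libraries had Cd55 reads, 136 of them, and the groups did not overlap. The limits for a count of 0 were 5.84 RPKM in RT2 and 5.08 RPKM in RT3, below the WT values of the same set. RT1 stood at 20.4% of the deep WT mean, and the log2(RPKM + 1) difference was -2.92 ± 0.53 (SE). Cd55b, a near-identical copy, was listed at 0 in all libraries, and reads of the pair may have been assigned to either.

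Cd7 (chr11:121036747-121039418, minus strand) is a short gene and rested on few reads. It had 0.567, 8.35 and 0 RPKM in RT1 to RT3, against 5.32, 11.7, 29.7 and 43.5 RPKM in WT1 to WT4. RT2 lay above WT1, but its 8.35 RPKM was 1 read, and the exact Poisson 95% interval ran from 0.211 to 46.5 RPKM. In the deep set the reads were 14 in RT1, against 112 in WT1 and 265 in WT2. There RT1 had 6.67% of the WT mean, and the log2(RPKM + 1) difference over all libraries was -2.89 ± 0.89 (SE).

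Treml2 (chr17:48299498-48312533, plus strand) was low in RT1 and mixed in the shallow libraries. It had 1.49, 2.10 and 9.11 RPKM in RT1 to RT3, against 8.53, 12.8, 3.73 and 10.9 RPKM in WT1 to WT4. RT3 lay above WT1 and WT3. Within the deep set RT1 had 13.9% of the WT mean, with 146 reads against 714 in WT1 and 1157 in WT2. The shallow libraries held 6 reads in RT together, against 8 in WT, so a difference was not detectable there. The log2(RPKM + 1) difference over all 7 libraries was -1.12 ± 0.61 (SE).

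Igfbp4 (chr11:99041244-99054392, plus strand), the secreted protein of the group, was low in all RT libraries. It had 0.976, 4.28 and 14.9 RPKM in RT1 to RT3, against 32.0, 60.5, 59.0 and 50.3 RPKM in WT1 to WT4. The groups did not overlap. RT1 stood at 2.11% of the deep WT mean, a level 47.4-fold lower and the largest such ratio among the 9 genes with reads in RT1. In the shallow set the WT libraries held 58 reads together, against 10 in RT, which put RT at 17.5% of WT. The log2(RPKM + 1) difference was -3.19 ± 0.65 (SE).

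Als2cl (chr9:110879870-110900530, plus strand) gave similar ratios in both sets. It had 4.10, 3.21 and 8.38 RPKM in RT1 to RT3, against 26.5, 45.2, 65.7 and 55.9 RPKM in WT1 to WT4. The lowest WT library was above the highest RT library. RT stood at 11.4% of the WT mean in the deep set and at 9.53% in the shallow set. Its log2(RPKM + 1) difference was -3.00 ± 0.47 (SE).

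Dtx1 (chr5:120680202-120711927, minus strand) had 4.33, 30.4 and 10.6 RPKM in RT1 to RT3, against 39.8, 58.5, 66.7 and 38.8 RPKM in WT1 to WT4. RT2 was the highest RT library and came closest to WT, with 15 reads and an exact Poisson 95% interval of 17.0 to 50.2 RPKM that reached the WT range. RT stood at 8.80% of the WT mean in the deep set and at 38.9% in the shallow set. The log2(RPKM + 1) difference was -2.02 ± 0.59 (SE).

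Trib2 (chr12:15791727-15816922, minus strand) had RT and WT ranges that overlapped. It had 29.2, 43.6 and 56.9 RPKM in RT1 to RT3, against 38.3, 54.2, 44.6 and 47.4 RPKM in WT1 to WT4. The means over both sets were 43.2 ± 13.8 RPKM in RT and 46.1 ± 6.60 RPKM in WT (SD, n = 3 and 4). They differed by less than the spread between libraries, but that spread also holds the difference in scale between the sets. RT1 was at 63.2% of the deep WT mean, and the shallow RT mean was at 109% of the shallow WT mean, from 50 reads against 48. The log2(RPKM + 1) difference was -0.13 ± 0.40 (SE), and it was 0.12 without RT1.

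Dapl1 (chr2:59484653-59505020, plus strand) was listed at 0 in RT1, RT2 and RT3, against 4.84, 21.8, 49.5 and 48.4 RPKM in WT1 to WT4. The deep set carries most of this result, with 0 reads in RT1 against 61 in WT1 and 296 in WT2. Taking 3 reads in RT1 as the limit, 0.203 RPKM, the level was at least 65.6-fold lower than the deep WT mean. In the shallow set each WT library had 4 reads, and the limits of 41.8 RPKM in RT2 and 36.3 RPKM in RT3 lay little below the WT values.

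Actn1 (chr12:80167547-80260371, minus strand), the cytoskeletal gene, was low in RT in both sets. It had 14.8, 0 and 7.43 RPKM in RT1 to RT3, against 37.2, 68.8, 53.2 and 46.1 RPKM in WT1 to WT4. The groups did not overlap, and RT1 held 1791 reads. RT stood at 28.0% of the WT mean in the deep set and at 7.48% in the shallow set, with 5 shallow reads in RT against 66 in WT. The log2(RPKM + 1) difference was -3.32 ± 0.82 (SE).

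RPKM is a level per length, so the genes can be ranked within a library. The sets are taken apart here, since their RPKM is not on 1 scale. In both WT1 and WT2 of the deep set, Actn1, Dtx1, Igfbp4, Trib2 and Als2cl stood highest, between 26.5 and 68.8 RPKM, and their ranges overlapped. Dapl1, Vipr1, Treml2, Cd7 and Cd55 stood between 4.84 and 21.8 RPKM in the same libraries, also with overlapping ranges between neighbours. In the shallow set, at 38.8 to 66.7 RPKM in WT3 and WT4, the same 5 genes were again above Vipr1, Cd55 and Treml2, at 3.73 to 15.2 RPKM. Dapl1 and Cd7 were higher there than in the deep set, at 48.4 to 49.5 and 29.7 to 43.5 RPKM, from 4 to 6 reads a library. In RT, Trib2 was the highest gene in every library, and Dapl1 was at 0.

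Split by set, the RT mean was below the WT mean in both sets for 9 of the 10 genes, with different sizes. Trib2 was lower in the deep set alone. For Treml2 the shallow means rested on 6 reads in RT and 8 in WT, so a difference was not detectable there. The share of all genes with lower means in both sets was not computed, and nothing is read from this count. RT1 was below both deep WT libraries for 10 of the 10 genes, where 34.2% of the genes kept were. Both shallow RT libraries were below both shallow WT libraries for 8 of the 10, the others being Treml2 and Trib2, where 24.1% of the genes kept were. The median log2(RPKM + 1) difference over the 10 genes was -2.96, and over all genes tested it was 0.00. In limma voom on recovered reads, with terms for genotype and library set, the median over the 9 genes that passed its read filter was -3.12, and over all genes tested it was -0.03. Dapl1 did not pass that filter. The filter sums shallow reads over RT and WT, and some of the genes passed through WT. Shallow reads in RT and WT were 0 and 15 for Cd55, 1 and 16 for Vipr1 and 1 and 10 for Cd7, while Trib2 had 50 and 48. The genes were picked for being low in RT, so both medians are a description.

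**Figure D2:**
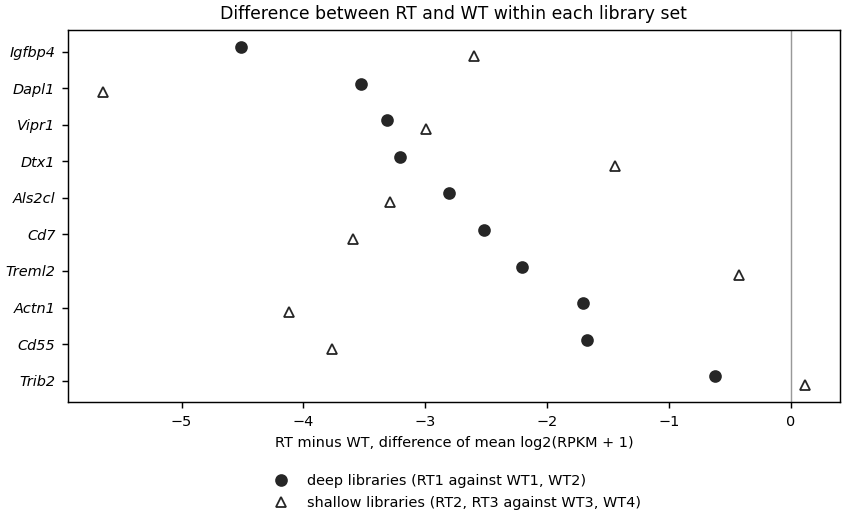
Difference in mean log2(RPKM + 1), RT minus WT, for each gene in the deep set (RT1 against WT1 and WT2) and the shallow set (RT2 and RT3 against WT3 and WT4). Every gene lies below 0 in the deep set, and Trib2 alone lies above 0 in the shallow set, at 0.11.

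Markers of other cells varied between libraries, most of all in the shallow set, where several were higher in WT, and their part in the differences was not tested. B cell markers summed to 402, 155 and 233 RPM in RT1 to RT3, against 308, 234, 1593 and 1822 RPM in WT1 to WT4, with 4 to 10 of the 10 above 0 in RT and all 10 in WT. Erythroid markers summed to 170 to 402 RPM in RT and to 110 to 1754 RPM in WT, where WT3 and WT4 held the high values. Myeloid markers were highest in RT1, at 2270 RPM, and spanned 258 to 2270 RPM in RT and 488 to 1072 RPM in WT. Markers of plasmacytoid dendritic cells spanned 53.7 to 113 RPM in RT and 85.3 to 351 RPM in WT, and those of NK cells 13.8 to 185 RPM in RT and 28.7 to 64.7 RPM in WT. T cell markers went the other way in the shallow set, at 9366 and 8999 RPM in RT2 and RT3, against 5766 and 5180 RPM in WT3 and WT4. In the deep set the B cell sum was 402 RPM in RT1, against 308 and 234 RPM in WT1 and WT2, and the myeloid sum was 2270 RPM in RT1, against 741 and 488 RPM in WT1 and WT2.

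The deep WT libraries also differed from each other in these genes. Their values took part in the choice of the genes, so this too is a description. WT2 was above WT1 for 9 of the 10 genes and by 1.5-fold or more for 7 of them, where 15.1% of the 10755 genes with 10 or more reads in both libraries were that much higher in WT2 and 55.1% were higher at all. The fold of 1.5 was chosen after seeing the values. The median ratio of WT2 to WT1 was 1.78 for the 10 genes and 1.04 for all genes. Dapl1 had the largest ratio, 4.50, followed by Cd7 at 2.19, Vipr1 at 2.01, Igfbp4 at 1.89, Actn1 at 1.85, Als2cl at 1.71 and Treml2 at 1.502. Dtx1 and Trib2 were at 1.47 and 1.42, and Cd55 was level at 0.997. Of the 21 other genes of naive T cells described next, 20 were higher in WT2, with a median ratio of 1.44. T cell markers had a median ratio of 1.07 and B cell markers one of 0.876. With 1 library on each side, this comparison has no replicate check.

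**Figure D3:**
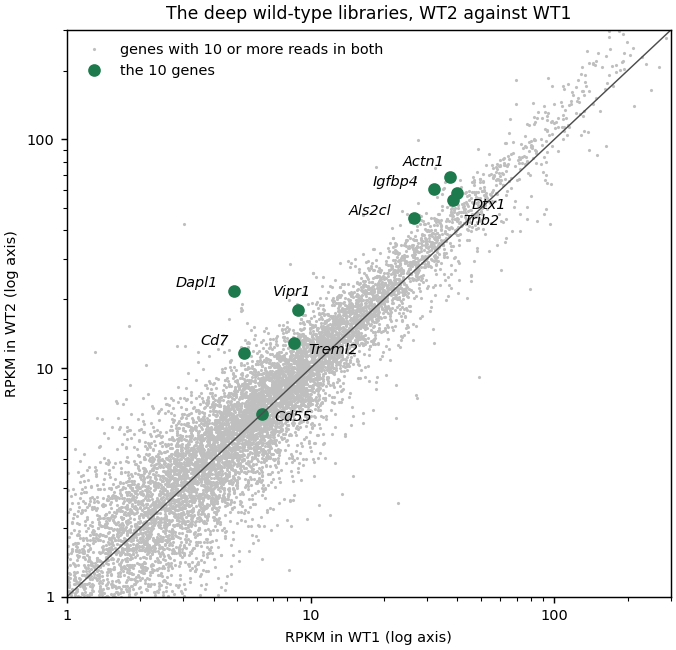
RPKM in WT2 (vertical) against WT1 (horizontal), both on log axes, for genes with 10 or more reads in both (grey, shown from 1 RPKM up) and the 10 genes (green); the line marks equal values. Of the 10 genes, 9 lie above the line and Cd55 lies on it. The median ratio of WT2 to WT1 is 1.78 for the 10 genes and 1.04 for all genes.

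A list of 22 other genes known from naive T cells was examined beside them, and 21 of these were in the table. The list was written with earlier results of these data known. Its counts are therefore a description, with no test of the list, and the shares over all genes are given for scale only. None passed limma on log2(RPKM + 1), where 4 genes of 9605 (0.0416%) were called higher in RT and 1 (0.0104%) lower at an adjusted p under 0.05. At an unadjusted p under 0.05, 12 of the 21 were lower and 0 higher, against 400 lower and 435 higher among all genes. The median of the 21 was -1.40 on that scale. In 11 of the 21, all RT libraries lay below all WT libraries. Limma voom on recovered reads tested 18 of them and called 13 lower, 1 higher and 4 neither, where 8.63% of 5850 genes were called lower and 10.1% higher. The median of the 18 was -1.39. Without RT1, the only deep RT library, this fit called 0 genes of the whole table, while voom on the shallow set alone, which also lacks RT1, called 6 of the naive genes lower. The shallow fit sets RT2 and RT3 against WT3 and WT4. Those WT libraries differed by only slightly more than sampling noise, and whether they vary as separate mice would is not shown.

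The transcription factor genes Satb1, Bach2 and Foxo1 were among those called. Satb1, a chromatin organiser, had 1.38, 0 and 3.99 RPKM in RT1 to RT3, against 18.1, 33.1, 17.0 and 23.3 RPKM in WT1 to WT4, and fell by 4.17 ± 0.34 on the log2 scale (SE, limma voom adjusted p = 4.16e-04). Bach2, a repressor of effector genes, had 2.06, 0 and 2.48 RPKM in RT, against 9.18, 9.21, 2.54 and 9.93 RPKM in WT, and fell by 2.18 ± 0.20 (SE, limma voom adjusted p = 4.83e-04). Foxo1, which drives the homing genes of naive cells, had 8.68, 6.55 and 11.4 RPKM in RT, against 22.1, 31.8, 28.1 and 18.0 RPKM in WT, and fell by 1.62 ± 0.19 (SE, limma voom adjusted p = 0.00154). In Satb1 and Foxo1 every RT library lay below every WT library. In Bach2 the ranges met at RT3 and WT3, which held 3 reads each. Lef1, Klf2 and Tcf7 were also called lower, but their RT and WT ranges overlapped. They fell by 1.865 ± 0.34, 1.35 ± 0.25 and 0.34 ± 0.09 (SE, limma voom adjusted p = 0.00842, 0.00877 and 0.0400). In the shallow set alone their voom values were -0.55, -0.24 and -0.34. Tcf7 was not called when RT3, WT3 or WT4 was left out.

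Homing receptors were also called. Ccr7, the receptor that guides cells into lymph nodes, had 7.88, 9.56 and 37.4 RPKM in RT1 to RT3, against 65.6, 122, 102 and 108 RPKM in WT1 to WT4, and fell by 3.46 ± 0.33 on the log2 scale (SE, limma voom adjusted p = 6.11e-04). S1pr1, the receptor for exit from lymphoid organs, had 14.2, 21.7 and 37.8 RPKM in RT, against 62.6, 96.4, 119 and 121 RPKM in WT, and fell by 2.44 ± 0.22 (SE, limma voom adjusted p = 4.83e-04). The RT and WT ranges of both receptors did not overlap. The integrin gene Itga6 and the filamin regulator Rflnb fell by 1.42 ± 0.19 and 2.40 ± 0.22 (SE, limma voom adjusted p = 0.00235 and 4.83e-04). Without RT1 the voom values were -3.95 ± 1.92 for Satb1, -2.31 ± 1.38 for Ccr7 and -1.30 ± 1.14 for Rflnb (SE). They lay below 0 as with RT1, but with far wider SEs, and that fit called no gene. It takes the genotype difference from the shallow libraries alone.

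Not every gene of the list was low in RT. Slamf6, a receptor of the SLAM family, rose by 1.04 ± 0.24 on the log2 scale (SE, limma voom adjusted p = 0.0211), and it was not called without WT4 (limma voom adjusted p = 0.059). Il7r, the receptor chain for the survival cytokine IL-7, had 38.4, 85.2 and 108 RPKM in RT1 to RT3, against 61.7, 63.0, 54.1 and 60.0 RPKM in WT1 to WT4, and was not called. Ets1, Pecam1 and Ramp1 were the other genes called in neither direction. The RT and WT ranges of Il7r, Ets1 and Pecam1 overlapped, as those of Trib2 did, and all RT libraries of Ramp1 lay above all WT libraries.

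**Figure D4:**
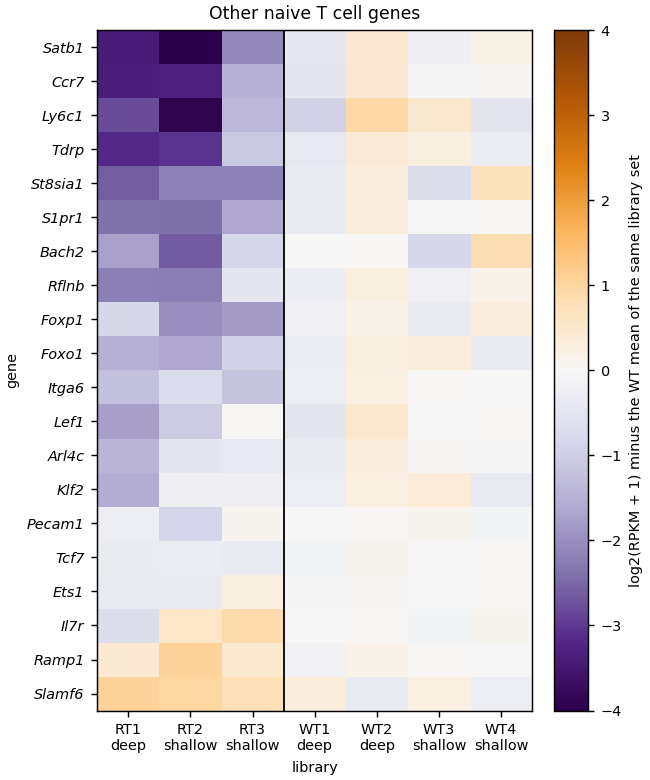
Heat map of 20 of the other naive T cell genes (rows) in the 7 libraries (columns, RT left of WT); colour is log2(RPKM + 1) minus the WT mean of the same library set, purple for lower and orange for higher, with the colour scale ending at -4 and 4. Most genes are purple in all 3 RT libraries, while Ramp1 and Slamf6 at the bottom are orange in all 3.

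Family members, ligands and partners of the 10 genes were taken from lists of relatives, of which 73 were in the table. Limma on log2(RPKM + 1) tested 33 and called 0, and before adjustment 2 were higher and 2 lower with p under 0.05. Limma voom on recovered reads tested 27 and called 4 higher, 4 lower and 19 neither, where 10.1% of all genes tested were called higher and 8.63% lower, and it called 0 without RT1. The voom median over the 27 was -0.16, against -0.03 over all genes tested.

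Some of the closest relatives stood higher in RT. Dap, the relative of Dapl1, had 89.6, 113 and 107 RPKM in RT1 to RT3, against 18.9, 14.5, 52.4 and 42.7 RPKM in WT1 to WT4, with no overlap, and rose by 2.31 ± 0.22 on the log2 scale (SE, limma voom adjusted p = 6.13e-04). Without RT1 its value was 1.13 ± 0.60 (SE). Dtx3, a deltex gene, had 15.5, 77.2 and 86.3 RPKM in RT, against 6.30, 5.03, 36.0 and 32.0 RPKM in WT, and rose by 1.41 ± 0.19 (SE, limma voom adjusted p = 0.00227). RT lay above WT within each set, and the value without RT1 was 1.19 ± 0.54 (SE). Its family members Dtx2, Dtx3l and Dtx4 ranged from 0 to 21.5 RPKM in RT and from 0 to 23.8 RPKM in WT, with overlapping ranges in each gene.

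Trib1, the other expressed tribbles gene, had 19.3, 12.1 and 9.21 RPKM in RT1 to RT3, against 8.29, 4.20, 5.38 and 6.58 RPKM in WT1 to WT4, and rose by 1.66 ± 0.34 (SE, limma voom adjusted p = 0.0129). Igf1r, the receptor for the growth factors that IGFBP4 binds, had 27.2, 6.09 and 9.26 RPKM in RT, against 10.04, 5.69, 5.41 and 3.97 RPKM in WT. It rose by 1.78 ± 0.30 (SE, limma voom adjusted p = 0.00588), most of it in RT1. Without RT1 the voom values were 0.70 for Trib1 and 0.64 ± 1.38 (SE) for Igf1r. Igf2r, which clears IGF2, spanned 2.61 to 10.5 RPKM in RT and 7.84 to 11.4 RPKM in WT. The other IGF-binding proteins were at or near 0 in most libraries.

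Among partners in adhesion, Adgre5 and Flna fell. Adgre5, which encodes the CD55 ligand CD97, had 43.4, 62.9 and 85.3 RPKM in RT1 to RT3, against 84.2, 88.6, 170 and 179 RPKM in WT1 to WT4, and fell by 1.07 ± 0.12 (SE, limma voom adjusted p = 0.00126). RT lay below WT within each set, and the value without RT1 was -1.28 ± 0.29 (SE). Flna, an actin cross-linker like ACTN1, fell by 0.72 ± 0.14 (SE, limma voom adjusted p = 0.0118), and stood at -0.95 without RT1. Actn4, the closest expressed relative of Actn1, had 28.2 to 72.6 RPKM in RT and 29.1 to 41.3 RPKM in WT and was not called. Tln1 and Zyx, other adhesion partners, spanned 56.0 to 94.8 and 8.40 to 16.8 RPKM in RT, against 97.7 to 143 and 9.13 to 39.0 RPKM in WT, and were not called.

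Most genes of the Notch pathway that were tested were not called. Notch1 had 3.32 to 17.9 RPKM in RT and 10.6 to 22.6 RPKM in WT, and Notch2 had 0.762 to 15.9 RPKM in RT and 13.0 to 17.2 RPKM in WT. Rbpj, Adam10, Itch, Maml1 and Maml2 were not called in either direction. Il2ra and Myc, which Notch can induce in T cells, fell by 1.86 ± 0.21 and 1.56 ± 0.24 (SE, limma voom adjusted p = 0.00117 and 0.00427). Without RT1 they stood at 0.12 ± 0.88 and -0.62 ± 1.02 (SE), so the direction for Il2ra rested on that library.

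For the remaining genes few relatives were measured. Vipr2 reached at most 1.16 RPKM in RT and 0.398 RPKM in WT, and the VIP gene itself was listed at 0 throughout, as were the CD7 ligand genes Sectm1a and Sectm1b. Lgals1, which encodes a galectin that binds CD7, had 51.1 to 209 RPKM in RT and 25.5 to 146 RPKM in WT and was not called. Of the genes listed with Als2cl, Rab5a, Rab5b and Rab5c spanned 12.03 to 142 RPKM in RT and 10.7 to 93.7 RPKM in WT, and none was called. Treml4, the expressed relative of Treml2, had 0 to 24.6 RPKM in RT and 0 to 8.42 RPKM in WT.

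**Figure D5:**
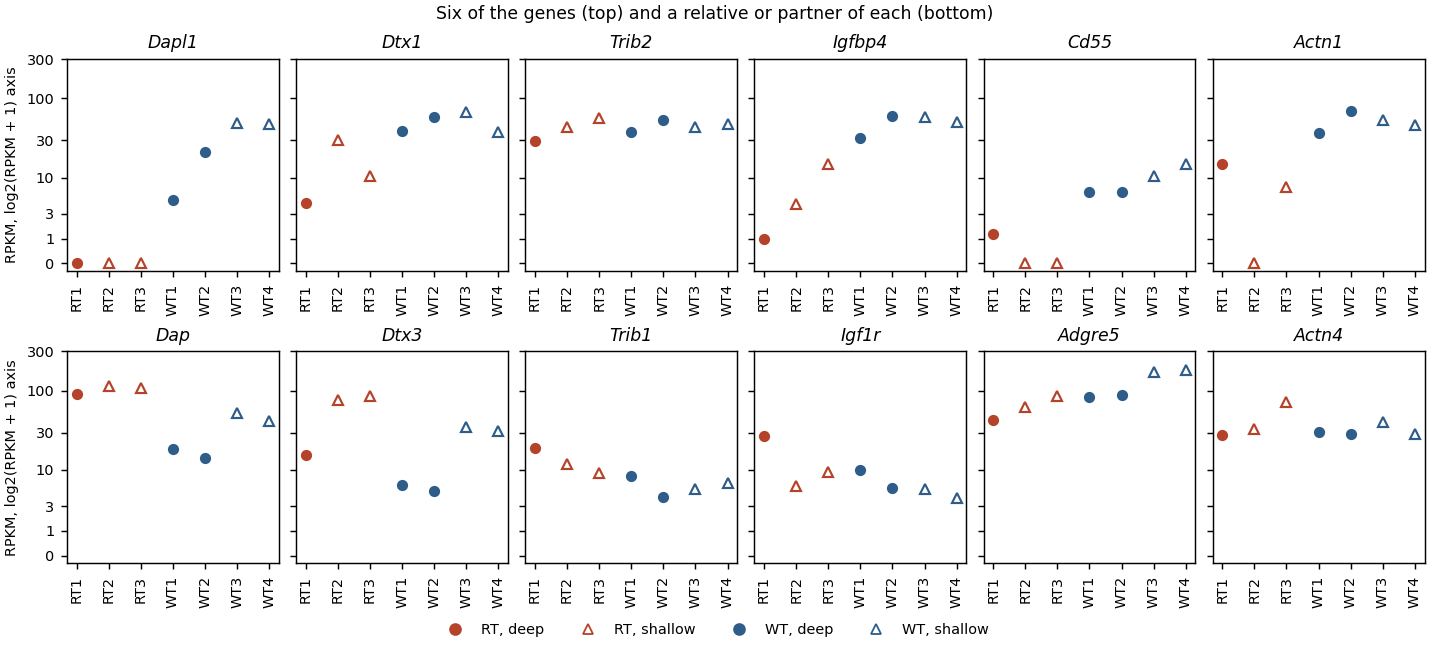
RPKM (log axis of RPKM + 1) in RT and WT libraries for 6 of the genes (top row) and a relative or partner of each (bottom row, chosen after the values were seen), filled points for the deep set and open triangles for the shallow set. Dap, Dtx3, Trib1 and Igf1r have higher means in RT, Adgre5 has a lower mean in RT, and the Actn4 ranges overlap.

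The genes most like the group across libraries were sought among 3531 genes with a mean of 10 RPKM or more. Likeness was Pearson's r over the 7 libraries, on log2(RPKM + 1) centred within each set, with the mean profile of the 10 genes. The libraries share genotype, set and depth, so r is a description. Add3, an actin-associated adducin, came first at r = 0.994. Its values were 9.15, 9.57 and 15.0 RPKM in RT1 to RT3, against 34.1, 41.9, 51.1 and 55.0 RPKM in WT1 to WT4. The next were the signalling adaptor gene Sh2d3c at 0.990, S1pr1 at 0.989, Selplg, which encodes PSGL-1, at 0.988, and Adgre5 at 0.982. Among the 10 genes themselves, r with the mean of the other nine was highest for Als2cl at 0.988, Vipr1 at 0.985 and Dapl1 at 0.967. It was 0.787 for Dtx1, 0.773 for Cd7 and 0.617 for Treml2, and lowest for Trib2 at 0.419.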

How the data were processed

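The deposited table holds RPKM per gene and library, made by the authors from libraries of 150 ng RNA. The submitters' processing notes name mm10. Aligner and counter: not given in the sources used here. The 10 genes, the lists of other genes and the tests were chosen with earlier results of these data known. Genes reaching 1 RPKM in 3 or more libraries were fitted as log2(RPKM + 1) with limma 3.58.1 (R 4.3.3; genotype only, trended eBayes, two-sided, Benjamini-Hochberg, threshold 0.05). A pseudocount of 1 understates changes of low genes.

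Whole reads were recovered from the RPKM steps with GENCODE M21 exon lengths. With these, 78.9% to 83.8% of low values came out whole within 0.01 reads. A single length served 10310 genes as annotated and 2665 as fitted, 827 needed lengths that differ between the sets, and 57 were not recovered. Recovered reads made up 48.3% to 52.3% of the totals in the deep set and 88.7% to 91.9% in the shallow one. Limma voom used genotype and library set, over genes with a shallow-set sum of at least 10 reads. Both fits were run on simulated data, and the outcome is not used here. The changed genes there had more shallow reads than Vipr1, Dapl1, Cd55, Cd7 and Treml2. Libraries of a set also shared a common profile, so the run does not cover these genes or the gap between WT1 and WT2.

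All 10 genes are named. Of the naive list, up to 8 called genes with the smallest voom p are named, of each family list up to 4 by mean RPKM with 1 RPKM or more in 3 libraries, and the 5 genes most alike in profile. Other genes are added where a count is small or where the background names them, chosen after their values were seen. Some results are not reported here. Coordinates are GENCODE M21, GRCm38. The labels describe separate mice. WT3 and WT4 differed by only slightly more than sampling noise (chi-square per degree of freedom 1.16, p = 7.17e-08, 2358 genes). The same ratio was 3.02 for RT2 and RT3, and 34.5 for WT1 and WT2, whose read counts were far higher. The small p rests on many genes and does not show that WT3 and WT4 vary as separate mice would. They were kept apart because of their labels. Same-numbered RT and WT libraries did not deviate together throughout, so the numbers were not taken as pairs.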

Additional observations from a re-analysis of the deposited data

Results flagged for a closer look

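In wild type, Bach2 RPKM had 1 library far from the others. WT3 stood at 2.54 RPKM, which was 3 reads in a shallow library, against 9.18 and 9.21 RPKM in WT1 and WT2 of the deep set and 9.93 RPKM in WT4, from 12 reads, and the gap was 0.900 of the whole range. With so few libraries, of unlike depth and scale, such a gap may arise by chance, and how often was not tested.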

How the results depend on the processing

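The median of the 10 genes stayed below 0 in every alternative run. That was largely fixed by picking the genes for being low in RT in these same libraries, and nothing is read from it. It was -3.96 with a pseudocount of 0.1, -1.68 with 5, -2.79 with the replicate block (which drops WT4) and -3.25 to -2.74 when single libraries were left out. In the voom fit with the library set it was -3.12, and -3.42 to -2.64 with single libraries left out. Of the 10 genes, Trib2 alone stood above 0, in 3 of 25 alternatives, at 0.12 without RT1, 0.07 in the shallow set alone and 0.08 in the voom fit without RT1. Rescaling to equal sums moved the median of all genes to -0.17 and that of the 10 genes to -3.15.

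Counts of called genes depended on the setting. Against 4 higher and 1 lower in the limma fit of RPKM, there were 0 and 0 with a pseudocount of 0.1, with no filter, with a filter of 5 RPKM, with WT3 and WT4 averaged, or with the replicate block. There were 5 and 0 with a pseudocount of 5, 13 and 6 after rescaling, 21 and 5 with the library set as a term, and 0 to 10 and 0 to 5 without single libraries. Voom on recovered reads gave 592 and 505 with the library set, 308 and 154 in the deep set, 188 and 256 in the shallow set, and 0 and 0 without RT1, 568 and 516 without RT2, 389 and 334 without RT3, 833 and 592 without WT1, 745 and 727 without WT2, 436 and 363 without WT3, and 444 and 363 without WT4. At an unadjusted p under 0.05, voom with the library set gave 982 and 946. The other naive T cell genes called lower were 0 in the limma fit, 2 after rescaling, 1 with the library set term, 13, 12 and 6 in the voom fits of all, deep and shallow libraries, and 0 to 13 without single libraries. The 0 belonged to the fit without RT1. That fit keeps WT1 and WT2 but no deep RT library. With the library set as a term, its genotype difference therefore comes from the shallow libraries alone. The SE of Satb1 was 1.92 in it, against 0.34 with all libraries. Its 0 calls do not show that the differences were absent without RT1, and what widened the SE was not tested. Same-numbered deviations correlated at 0.43, -0.18 and 0.18. Depth limits Dapl1, Cd7 and Treml2 in the shallow set, where a few reads decide each value, and the cause of the other shifts was not tested.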
